A study of Mus musculus with 9 samples.

Results

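The respiratory chain of the inner mitochondrial membrane was examined across 3 populations of mouse bone marrow (BM) cells. The members are the nuclear genes whose symbols begin with *Nduf*, *Uqcr*, *Cox4* to *Cox8* or *Atp5*, together with *Sdha*, *Sdhb*, *Sdhc*, *Sdhd*, and *Cycs*. The rule for membership uses symbols alone. The rule found 90 members among the 19937 genes named by the arrays. By symbol, 36 belong to complex I, 7 to complex I assembly and related functions, 4 to complex II, 8 to complex III, 17 to complex IV, and 17 to complex V, and *Cycs* is the 1 gene of cytochrome c. *Ndufa4*, counted here with complex I by its symbol, encodes a protein that is now usually placed in complex IV. The symbols *Cox7c*, *Ndufb4*, *Ndufb4b*, and *Ndufs5-ps* occur only on probe sets that name several genes, so these 4 were not measured.

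RNA came from C57Bl/6 mice kept pathogen free to 8 weeks of age, with steady-state BM and no treatment. All 3 populations were sorted as Ly6Chi CD115+ cells, and the study's methods add that lineage-positive and MHCII+ cells were gated out. R1 is Flt3-CD11c-, R2 is Flt3+CD11c-, and R3 is Flt3+CD11c+. The study treats R1 and R2 as monocytes and R3 as precursors of dendritic cells (pre-DCs). Each population was measured on 3 arrays, and the labels carry 3 dates with 1 array of each population per date, numbered here as replicates 1 to 3. What the dates mark is not stated, nor whether the arrays come from separate mice, so the spread behind the p-values is that of the arrays and may be technical. Every array started from 1 ng of RNA, which was then amplified, so a level is a share of the sampled RNA and not an amount per cell. In bulk samples such as these, fewer cells of a type and less RNA per cell cannot be told apart.

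The respiratory chain passes electrons from NADH (complex I) and from succinate (complex II) through ubiquinone to complex III, then by way of cytochrome c to complex IV, which reduces oxygen. Complexes I, III, and IV pump protons, and complex V, the ATP synthase, uses the resulting gradient to make ATP. Most subunits are encoded in the nucleus, with a few in the mitochondrial genome. Several complex IV subunits have a general form and a tissue-restricted form encoded by another gene. Monocytes and dendritic cells are known to shift between glycolysis and respiration when they differentiate or are activated.

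The populations were checked against marker genes first. Of 14 DC markers, 11 rose in R3 relative to R2, among them *Flt3* and *Itgax* (CD11c), which served in the sort. Of 9 monocyte and macrophage markers, 5 fell in the same comparison and 1 rose. Of 13 neutrophil and granule genes, 5 fell relative to R2, and the summed intensity of the list ran from 2330 to 17000 in R3, from 22300 to 28600 in R2, and from 15700 to 23100 in R1. R3 replicate 1 carried the highest sum of the 3 R3 arrays. Of 7 plasmacytoid DC markers, 5 rose relative to R2, and none of 7 T cell or of 5 erythroid markers was called in any comparison. Other lineage lists held calls against R2. These were 1 of 7 NK cell markers (*Klrd1*, 4.03 in log2), 1 of 7 B cell markers (*Blnk*, 1.73), and 1 of 7 stem and progenitor markers (*Cd27*, 0.73). Of 6 basophil and mast cell markers, 1 was lower (*Mcpt8*, -1.57). Of 23 cell cycle genes, 6 rose in R3 relative to R1 and 1 fell relative to R2. In R2 relative to R1, 2 of them (8.7%) rose, where 0.211% of all genes did, with a median difference of 0.34 (log2). R1 replicate 1 held the lowest of the 3 R1 values for 64 of the 90 members, and its cell cycle genes differed from the mean of the other R1 arrays by a median of -0.40 (log2). The part of these cell type, granule, and cell cycle differences in the results below was not tested.

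Respiratory chain promoters are known for binding sites of a few shared factors, and the windows of 3 members are printed for that reason. *Sdhd*, *Ndufb2*, and *Ndufs4* had the largest differences below R2 among the members that fell, as described further on. Each window covers 250 bases before and 50 bases after the annotated start of the gene, on the gene's strand, from RefSeq on GRCm38.p6. Capitals mark matches to 4 motifs searched on both strands. These were GCGCANGCG for NRF1, CCGGAAG for ETS factors such as GABPA, AAGATGGC for YY1, and the cyclic AMP response element (CRE) TGACGTCA.
Sdhd, chr9:50603800-50604099, minus strand: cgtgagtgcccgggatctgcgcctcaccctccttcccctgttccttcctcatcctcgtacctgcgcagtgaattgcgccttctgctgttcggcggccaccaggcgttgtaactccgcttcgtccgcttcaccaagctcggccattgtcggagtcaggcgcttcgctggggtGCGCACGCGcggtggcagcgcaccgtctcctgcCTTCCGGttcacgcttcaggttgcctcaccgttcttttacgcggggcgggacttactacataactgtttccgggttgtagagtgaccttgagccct
Ndufb2, chr6:39592315-39592614, plus strand: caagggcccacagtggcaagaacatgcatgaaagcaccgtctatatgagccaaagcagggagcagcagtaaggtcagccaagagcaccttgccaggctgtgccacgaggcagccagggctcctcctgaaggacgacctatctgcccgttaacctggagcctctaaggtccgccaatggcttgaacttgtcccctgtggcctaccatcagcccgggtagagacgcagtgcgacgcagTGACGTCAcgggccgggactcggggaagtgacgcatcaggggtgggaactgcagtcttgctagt
Ndufs4, chr13:114388045-114388344, minus strand: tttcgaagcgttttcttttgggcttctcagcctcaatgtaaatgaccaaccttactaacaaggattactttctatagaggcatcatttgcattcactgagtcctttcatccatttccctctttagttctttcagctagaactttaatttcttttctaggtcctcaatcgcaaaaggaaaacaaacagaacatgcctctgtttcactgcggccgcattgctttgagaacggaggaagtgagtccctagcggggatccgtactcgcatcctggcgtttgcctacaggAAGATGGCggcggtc

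In the *Sdhd* window, the NRF1 match began 79 bases before the start and the ETS match 46 bases before it. The *Ndufb2* window held a CRE match that began 14 bases before the start. In *Ndufs4*, the YY1 match began at base 36 of the transcript. Of the 90 members, 74 had a window, 5 of them 2 windows, which gives 79 windows in all. NRF1 matches stood in 29.1% of these windows, against 6.25% of the 32851 windows of all genes. For ETS the shares were 22.8% of member windows and 8.86% of all windows. YY1 matches occurred in 12.7% and 2.75%, and CRE matches in 6.33% and 1.79%. A match is a string of letters in a window and does not show that a factor binds there.

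The first question was how the chain differs between R3 pre-DCs and R2 monocytes, both sorted as Flt3+ and differing in CD11c. *Flt3* RNA was still 3.13 higher (log2) in R3 than in R2 (adjusted p = 2.37e-05 in limma's fit). Here 12 members were lower in R3 and 1 was higher, at an adjusted p under 0.05 in limma's fit over all 19937 genes. Over all genes, 4.69% were called lower and 4.85% higher. The share called depends on the level of a gene, and 86 of the 90 members lay above the median level of all genes. Among the 9968 genes above that level, 8.72% were called lower and 8.73% higher. The 13.3% of members called lower stood above both backgrounds and the 1.11% called higher below both. The median percentile of level over the members was 96.57, so neither background was matched to them in level. The median difference of the members was -0.17 (log2), a change of -10.8%, while the median of all genes was -0.01. Mean levels were lower in R3 for 74 members and higher for 16, where 52.3% of all genes had a lower mean. In 50 members (55.6%) all 3 R3 arrays lay below all 3 R2 arrays, an arrangement found in 12.2% of all genes and 19.7% of those above the median level. The reverse arrangement occurred in 4 members, *Ndufa4l2*, *Cox6a2*, *Cox7a2l*, and *Atp5g2*, and in 12.6% of all genes. The count of 12 rests on all 9 arrays. With any 1 array of R2 or R3 left out it was 5 to 7, without R1 replicate 2 it was 6, and without R1 replicate 1 it was 15. The shares of all genes called with arrays left out are not given, here or below. A change in the members and a change over all genes cannot be told apart from these counts.

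The differences were mostly small. The median of the 14 DC markers was 1.75 (log2) in the same comparison. Apart from *Cox6a2*, no member differed by as much as 2-fold, and for 87 of 90 members the 95% interval of the difference lay within 2-fold either way. Single-array values of all called members are plotted by population.

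**Figure D1:**
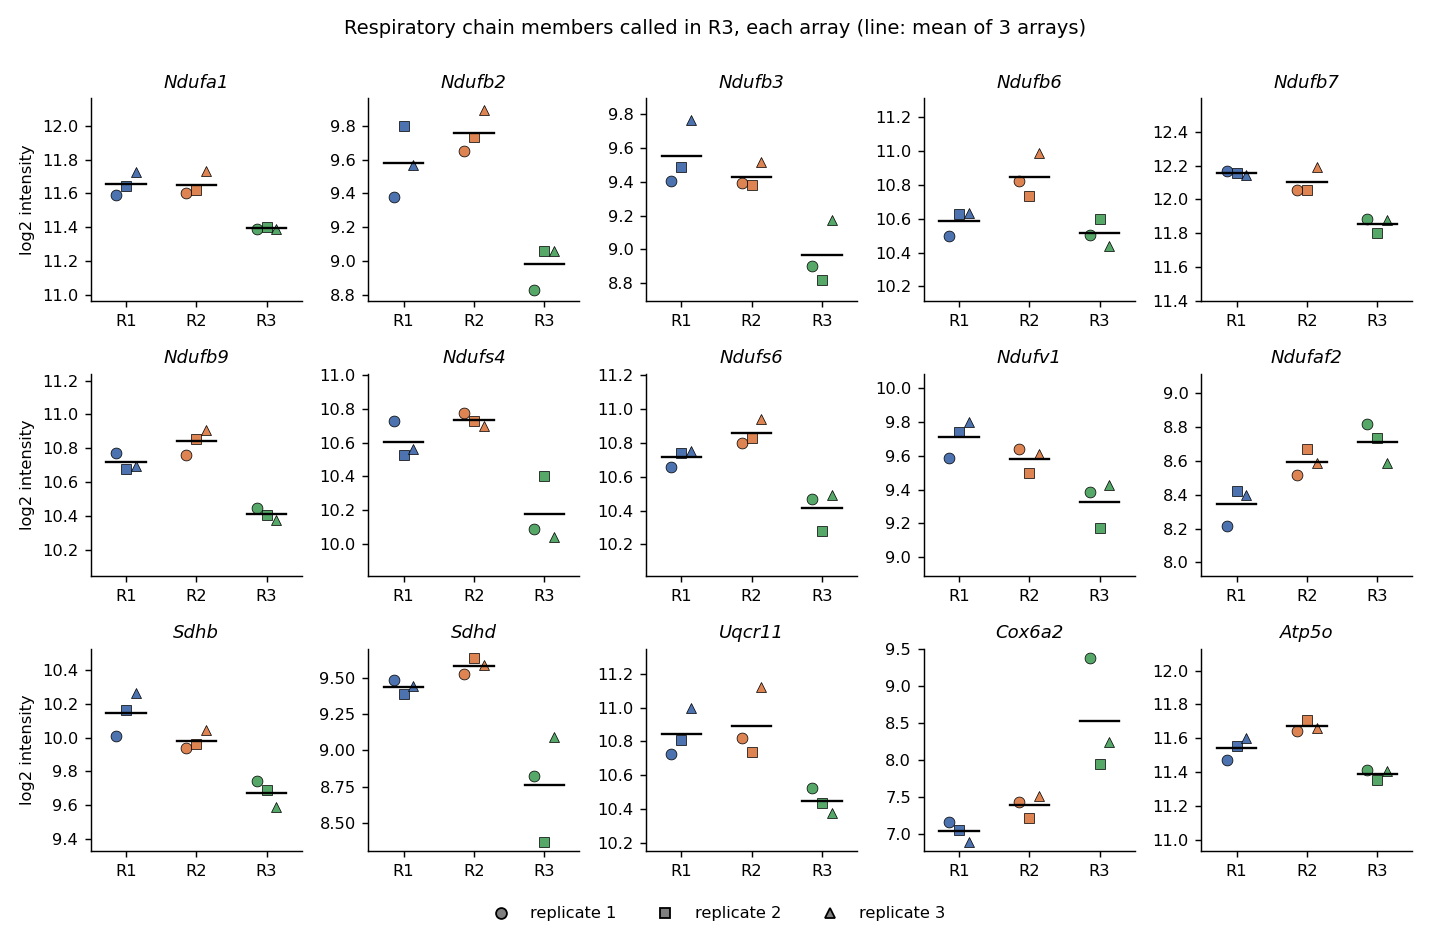
Log2 intensity (y axis, own scale per panel) of the 15 members called in at least 1 comparison, by population (x axis). Points are single arrays, with the shape giving the replicate, and lines are means of 3 arrays. The 10 members called lower in both comparisons have all R3 arrays below all R1 and R2 arrays, while *Cox6a2* rises in R3 with replicate 1 far above the other R3 arrays.

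Complex I, which oxidizes NADH, held 8 of the 12 members that fell. It is also the largest group, and these 8 are 22.2% of its 36 members, against 13.3% of all 90 members. *Ndufb2*, an accessory subunit of the membrane arm, measured 9.65, 9.73, and 9.89 in the R2 arrays and 8.83, 9.06, and 9.06 in the R3 arrays (log2 intensity). Every R3 array was below every R2 array. The log2 difference was -0.78 ± 0.12 (SE, adjusted p = 0.00309 in limma's fit), and the linear level fell by 41.6%.

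*Ndufs4*, an accessory subunit near the NADH-oxidizing end whose loss in mice causes a Leigh-like encephalopathy, read 10.78, 10.73, and 10.70 in R2 and 10.09, 10.40, and 10.04 in R3. Again the arrays did not overlap. The log2 difference was -0.56 ± 0.10 (limma, adjusted p = 0.00811). *Ndufs6*, which sits in the same region of the matrix arm, fell by 0.44 on the log2 scale (adjusted p = 0.00701). The membrane arm accessory subunits *Ndufb9* (-0.43, adjusted p = 0.00287), *Ndufb3* (-0.46, adjusted p = 0.0415), and *Ndufb6* (-0.33, adjusted p = 0.0399) fell as well. Also lower were *Ndufa1* (-0.26) and *Ndufb7* (-0.25). The R3 arrays lay below all R2 arrays in these genes too.

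The core subunits of complex I, which carry the redox centers and are shared with bacteria, gave no call against R2. *Ndufs1*, the largest iron-sulfur subunit, differed by -0.05 ± 0.12 (log2, adjusted p = 0.90 in limma's fit). *Ndufv1*, the NADH-binding flavoprotein, differed by -0.26 ± 0.09 (adjusted p = 0.14). The 6 core subunits measured had a median difference of -0.16, and the 30 other complex I members, which held all 8 calls, had a median of -0.22. This grouping was made after the values had been seen, and the difference between the sets was not tested. The 7 members of complex I assembly and related functions had no call and a median of -0.03.

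Complex II links the citric acid cycle to the chain, and 2 of its 4 genes fell. *Sdhd*, which encodes a membrane anchor of succinate dehydrogenase, showed the largest difference of any member that fell. It measured 9.52, 9.64, and 9.59 in R2 and 8.83, 8.37, and 9.09 in R3. The R3 arrays were spread over a wider range than those of R2 but stayed below them. The log2 difference was -0.82 ± 0.15 (adjusted p = 0.0084 in limma's fit), and the linear level fell by 43.4%. *Sdhb*, the iron-sulfur subunit, fell by 0.31 (adjusted p = 0.049). *Sdhc*, the other anchor, differed by -0.37 ± 0.18 (adjusted p = 0.30), with R3 arrays at 10.43, 9.85, and 10.19 below R2 arrays at 10.50, 10.46, and 10.63. *Sdha*, the catalytic flavoprotein, differed by -0.12 ± 0.10 (adjusted p = 0.64). In all 4 genes of complex II every R3 array lay below every R2 array.

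In complex III, all 8 members had lower means in R3, with a median of -0.22 and 1 call. *Uqcr11*, a small accessory subunit, fell by 0.45 (adjusted p = 0.037, limma), from 10.82, 10.74, and 11.12 in R2 to 10.52, 10.44, and 10.38 in R3. Another probe set of *Uqcr11* gave -0.59. *Uqcrfs1*, the Rieske iron-sulfur protein, differed by -0.07 ± 0.08 (adjusted p = 0.74), and *Uqcrc1*, a core protein, by -0.15 ± 0.10 (adjusted p = 0.51). *Cycs*, the electron carrier between complexes III and IV, differed by -0.09. Its R3 value was exactly the same, 11.27, on all 3 arrays, so R3 added no spread to its error. R1 replicate 3 held that value too. *Ndufb5* was tied across the 3 arrays of R2. Some other members had identical values on single arrays of different populations, such as *Ndufs1* (8.46) and *Ndufab1* (9.62). The effect of such ties on the differences was not tested.

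None of the 17 complex IV members was called lower. Means were lower in R3 for 12 of them, and in 7 all R3 arrays lay below all R2 arrays. *Cox4i1*, the general form of subunit 4, differed by -0.22 ± 0.07 (adjusted p = 0.09, limma) and *Cox5a* by 0.04 ± 0.11 (adjusted p = 0.93). The median of the complex was -0.13. In complex V, 15 of 17 means were lower in R3, with a median of -0.15 and 1 call. *Atp5o*, which joins the catalytic head to the peripheral stalk, fell by 0.28 (adjusted p = 0.0215, limma), from 11.64, 11.71, and 11.66 in R2 to 11.41, 11.35, and 11.40 in R3. The head subunits *Atp5a1* and *Atp5b* differed by -0.15 and -0.08 and were not called.

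**Figure D2:**
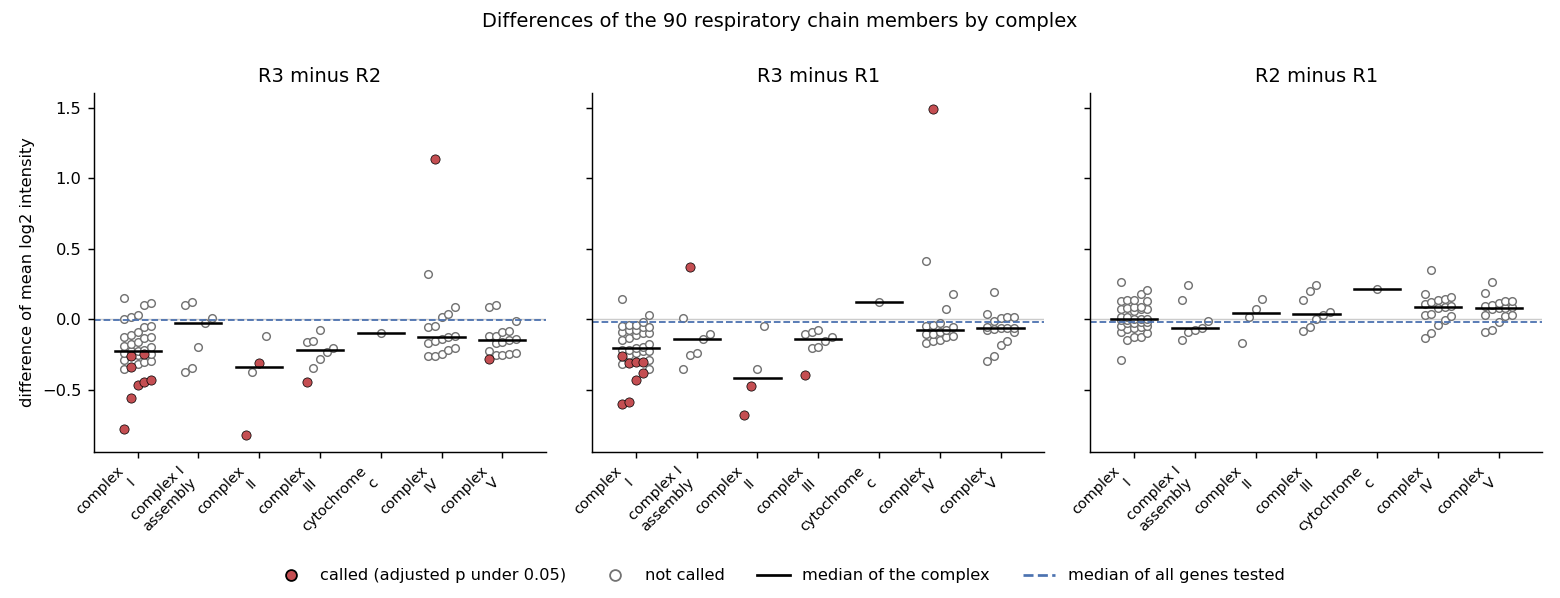
Difference of mean log2 intensity (y axis) for each of the 90 members, by complex (x axis), in the 3 comparisons. Red points were called, black lines are medians of the complex, and the dashed line is the median of all genes. Complex I medians are -0.22 for R3 minus R2 and -0.20 for R3 minus R1, and no point is called in R2 minus R1.

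Against R1, the Flt3- monocytes, 11 members were lower in R3 and 2 were higher. All genes were called lower at 7.02% and higher at 6.49%. The 12.2% of members called lower stood above the share of all genes. Of the 9968 genes above the median level, 1293 were called lower, a slightly larger share than that of the members. The share of members called higher, 2.22%, lay below the 11.7% of genes above the median level. Neither background was matched to the members in level, so a background at like levels is not known. The median difference of the members was -0.10 (log2) and that of all genes -0.02. Means were lower in R3 for 76 members (55.7% of all genes), and in 30 members (33.3%) all R3 arrays lay below all R1 arrays, against 12.9% of all genes and 20.0% of those above the median level. In 3 members all R3 arrays lay above all R1 arrays (11.6% of all genes). R1 replicate 1 moves these values. Without it, 15 members were lower and 1 was higher, and the median difference was -0.16. The count of lower members was 7 without R1 replicate 2, 6 without R1 replicate 3, and 7 without R3 replicate 1.

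Of the 11 members that were lower than in R1, 10 were also lower than in R2, *Ndufa1*, *Ndufb2*, *Ndufb3*, *Ndufb7*, *Ndufb9*, *Ndufs4*, *Ndufs6*, *Sdhb*, *Sdhd*, and *Uqcr11*. Both comparisons use the same R3 arrays, so this count is no independent repeat. *Ndufb2* measured 9.38, 9.80, and 9.57 in R1, all above the R3 values, and differed by -0.60 ± 0.12 (adjusted p = 0.00964, limma). *Sdhd* read 9.48, 9.39, and 9.44 in R1 and differed by -0.67 ± 0.15 (adjusted p = 0.0174), though the call was lost without R1 replicate 1 or without R1 replicate 3. *Ndufb3* fell by 0.59 (adjusted p = 0.0105).

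*Sdhb* had the smallest adjusted p of the members against R1. Its R1 arrays measured 10.01, 10.16, and 10.26, its R2 arrays 9.94, 9.96, and 10.05, and its R3 arrays 9.74, 9.69, and 9.59. R3 lay below both monocyte populations, whose arrays overlapped. The log2 difference to R1 was -0.47 ± 0.08 (adjusted p = 0.00452, limma), and the linear level fell by 27.9%.

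*Ndufv1*, the core subunit that binds NADH, was called against R1 and not against R2. It measured 9.59, 9.74, and 9.80 in R1, 9.64, 9.50, and 9.61 in R2, and 9.38, 9.17, and 9.43 in R3. The difference to R1 was -0.38 ± 0.09 (adjusted p = 0.0228, limma), and R2 minus R1 was -0.13 (adjusted p = 0.71).

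By complex, R3 minus R1 gave medians of -0.20 in complex I, -0.41 in complex II, -0.14 in complex III, -0.08 in complex IV, and -0.06 in complex V. The calls lay in complex I (8 of 36 lower), complex II (2 of 4 lower), complex III (1 of 8 lower), complex IV (1 of 17 higher), and complex I assembly (1 of 7 higher). Complex V had none. *Cycs* differed by 0.12 (adjusted p = 0.45, limma). *Ndufaf2*, an assembly factor that acts late in building complex I, was the assembly gene that rose. It measured 8.22, 8.42, and 8.40 in R1, 8.52, 8.67, and 8.59 in R2, and 8.82, 8.73, and 8.59 in R3. R3 exceeded every R1 array and overlapped R2. The difference to R1 was 0.37 ± 0.09 (adjusted p = 0.0231), and the call was lost without R1 replicate 1, R3 replicate 1, or R3 replicate 2.

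Array by array, the complex I median was below its R1 mean in every R3 array, at -0.18, -0.14, and -0.19 (log2) in replicates 1 to 3. The R1 arrays lay at -0.09, 0.01, and 0.07, and the R2 arrays at -0.02, -0.01, and 0.07. For complex II the R3 arrays stood at -0.24, -0.56, and -0.33. The R3 medians of complexes IV and V were nearer to those of the monocytes, at -0.10, -0.02, and -0.07 for complex IV and -0.08, -0.04, and -0.07 for complex V. R1 replicate 1 lay among the R3 arrays in complex IV (-0.05) and below all of them in complex V (-0.10). The median over all genes stayed between -0.02 and 0.00 on every array.

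**Figure D3:**
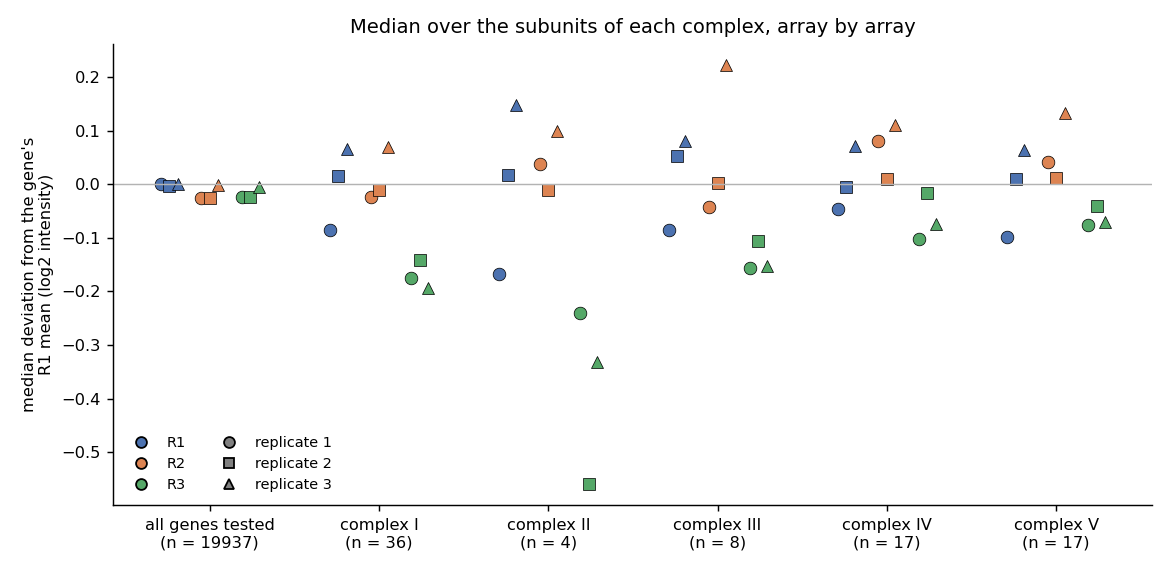
Median over the subunits of a complex of the deviation from each gene's R1 mean (y axis, log2 intensity), for every array, with colors for populations and shapes for replicates. The first column is the median of all 19937 genes. In complexes I, II, and III every R3 array lies below every R1 and R2 array, while R1 replicate 1 lies among the R3 arrays in complex IV and below them in complex V.

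R2 and R1 were sorted as Flt3+ and Flt3-, and both as CD11c-. *Flt3* RNA was 0.68 higher (log2) in R2 and not called (adjusted p = 0.281 in limma's fit). No member was called between R2 and R1, and 0.211% of all genes were called higher and 0.181% lower. At an unadjusted p under 0.05 there were 5 members, *Ndufb6*, *Ndufaf2*, *Uqcr10*, *Cycs*, and *Atp5md*, all with higher means in R2 (log2 differences from 0.20 to 0.27, adjusted p from 0.288 to 0.396 in limma's fit). That is 5 of 90 members where 10.7% of all genes passed. The methods' unpaired test gave 6 members at an unadjusted p under 0.05, all higher in R2, and 0 after Benjamini-Hochberg adjustment. The median difference was 0.04 and turned to -0.02 without R1 replicate 1. For 89 of 90 members the 95% interval lay within 2-fold either way. The exception was *Cox6a2*, with an interval from -0.34 to 1.04. All 3 R2 arrays lay above all 3 R1 arrays in 12 members (13.3%, against 5.44% of all genes and 8.50% of those above the median level), and below them in 1 (7.99% and 12.1%).

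*Cox6a2* was the only member higher in R3 than in both other populations. It encodes the form of complex IV subunit 6a best known from heart and skeletal muscle, while *Cox6a1* encodes the general form. *Cox6a2* measured 7.17, 7.06, and 6.89 in R1, 7.44, 7.22, and 7.52 in R2, and 9.39, 7.95, and 8.25 in R3. All R3 arrays exceeded all others, with replicate 1 more than 1 log2 unit above the rest of R3. The difference was 1.14 ± 0.31 (log2) to R2, 2.20-fold with an adjusted p of 0.0499 in limma's fit, and 1.49 ± 0.31 to R1, 2.80-fold with an adjusted p of 0.0109.

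Some genes of other cell types varied in the same order as *Cox6a2* among the R3 arrays, highest in replicate 1 and lowest in replicate 2. Of the 13 neutrophil and granule genes, 8 were highest in replicate 1, and 6 of them followed the whole order, including *Camp* (10.79, 6.16, and 8.77 in R3 replicates 1 to 3), *Ngp* (10.73, 6.27, and 9.03), and *Ltf* (8.92, 4.93, and 7.03). Others ran differently, with *Ctsg* (6.51, 6.85, and 7.43) and *Mmp8* (5.44, 5.68, and 6.63) highest in replicate 3. The summed intensity of the 13 genes was 17000, 2330, and 8060 in R3 replicates 1 to 3. Of the 7 plasmacytoid DC markers, 3 were highest in replicate 1, among them *Ly6d* (8.54, 8.00, and 7.98), and 0 followed the whole order. *Siglech* measured 10.03, 10.05, and 9.32, and *Cd7* 12.27, 12.22, and 12.36. The 7 plasmacytoid DC markers summed to 13800, 12900, and 12100 in R3, and to 1820 to 2100 in R2. The call of *Cox6a2* against R2 held without R3 replicate 1 (a difference of 0.71, adjusted p = 0.0164 in limma's fit) and without R3 replicate 2 (1.42, 0.0196), and was lost when R3 replicate 3, any single array of R1 or R2, or any whole replicate was left out, with adjusted p from 0.0648 to 0.229. Against R1 the call held when any single array was left out, with a difference of 1.06 without R3 replicate 1, and was lost without the whole of replicate 2 or 3 (adjusted p of 0.0537 and 0.118). The part of granule or plasmacytoid DC RNA in the difference was not tested.

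The general forms did not rise with it. *Cox6a1* measured 12.87, 12.90, and 12.89 in R3, 12.80, 12.86, and 12.95 in R2, and 12.84, 12.93, and 12.96 in R1. Its differences were 0.01 to R2 (adjusted p = 0.96, limma) and -0.03 to R1 (adjusted p = 0.86), with intervals within 1.5-fold. Probe sets of the 2 genes cannot be compared in level, so the share of either form in the cells is not known from these values.

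The other isoform genes were not called in any comparison. *Cox6b2*, best known from testis, differed by 0.32 ± 0.17 to R2 (adjusted p = 0.38, limma) and 0.41 ± 0.17 to R1 (adjusted p = 0.18), and *Cox6b1* by -0.17 to both. *Cox4i2*, the form best known from lung, differed by -0.04 to R2, and *Cox7a1*, the muscle form of subunit 7a, by -0.26 ± 0.14 (adjusted p = 0.36). *Cox7a2* differed by -0.24 and *Cox7a2l*, a relative that takes part in joining complexes III and IV, by 0.09. *Cox7b2*, *Cox8b*, *Cox8c*, and *Ndufa4l2* lay at or below the median level of all genes, and their differences to R2 ran from -0.20 to 0.11. *Ndufa4* differed by -0.35 ± 0.11 to R2 (adjusted p = 0.08), with R3 at 11.38, 11.57, and 11.40 below R2 at 11.77, 11.67, and 11.97. Of the 3 genes for the identical mature c-ring subunit of complex V, *Atp5g1* and *Atp5g3* differed by -0.14 and -0.24 to R2 and *Atp5g2* by 0.10. Other probe sets of *Atp5g2* gave 0.05 and -0.29, so its sign depends on the probe set.

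**Figure D4:**
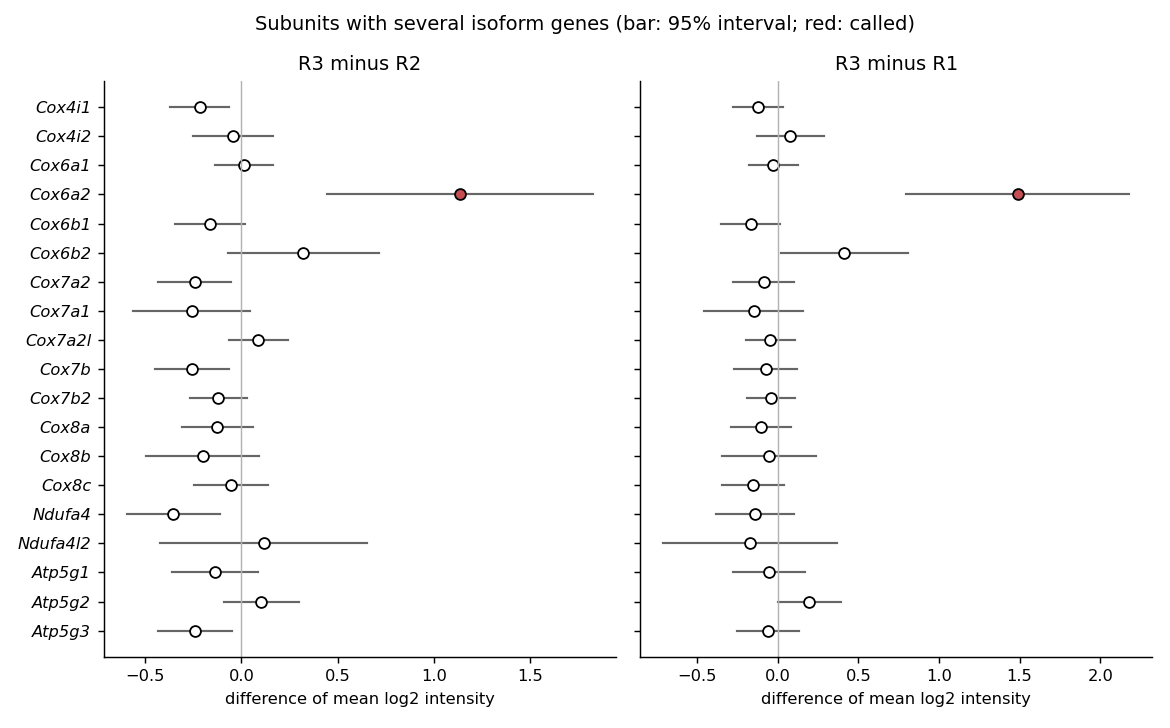
Difference of mean log2 intensity (x axis) with its 95% interval for subunits that have several isoform genes (y axis), R3 minus R2 on the left and R3 minus R1 on the right. Red marks a call. *Cox6a2* alone is called, at 1.14 and 1.49, while *Cox6a1* lies at 0.01 and -0.03.

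Genes that build or surround the chain were described from lists written beside the rule. Of 37 assembly factors outside the rule, 4 (10.8%) fell in R3 relative to R2 and none rose. Against R1, 8 (21.6%) were lower and 1 (2.7%) was higher. The medians were -0.05 to R2 and -0.09 to R1. For comparison, 4.69% of all genes were lower than in R2 and 7.02% lower than in R1. Of the 9968 genes above the median level, 869 were lower than in R2 and 1293 lower than in R1. These backgrounds were not matched to the lists in level. *Uqcc2*, which helps to assemble complex III, differed by -0.73 to R2, and *Tmem126b*, a complex I assembly factor, by -0.63. *Sco1*, a copper carrier for complex IV, fell by 0.75 against R1. Among 16 other proteins of the chain, 3 (18.8%) were lower and 1 (6.25%) higher than in R2. *Etfb*, part of the electron transfer flavoprotein, fell by 0.53, and *Gpd2*, the mitochondrial glycerol phosphate dehydrogenase, rose by 0.47. The mitochondrial genome was covered by 2 probe sets here, *ND3* and *COX2*. *ND3* differed by -0.06 and *COX2* by -0.05 to R2, and neither was called.

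Mitochondrial ribosomal proteins, which translate the mitochondrial messages, had a median of -0.17 to R2 and -0.20 to R1 over 77 genes. Against R2, 7 (9.09%) were lower and 1 was higher, and against R1, 8 (10.4%) were lower and 1 was higher. The share lower than in R2 was near the 8.72% of genes above the median level. The share lower than in R1 was below that of such genes, 1293 of 9968. Both shares were above those of all genes, 4.69% and 7.02%. *Mrpl48* fell by 0.67 and *Mrpl14* fell by 0.65 against R2, and *Mrpl52* rose by 0.52. The 71 genes taken as cytosolic ribosomal proteins had medians of -0.02 and 0.02 and no call against R2. The only call against R1 was *Rps6ka5*, a kinase that the symbol prefix caught and not a ribosomal protein.

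Of 23 regulators of mitochondrial biogenesis, 1 (4.35%) was higher and 2 (8.7%) were lower than in R2. Of all genes, 4.85% were higher and 4.69% lower, and of those above the median level 8.73% and 8.72%. *Myc*, a transcription factor that drives growth, rose by 1.05, and *Polg*, the polymerase of the mitochondrial genome, fell by 0.58. The remaining call was *Ssbp1*, which binds single-stranded mitochondrial DNA and fell by 0.34. In the citric acid cycle (17 genes), *Dld* fell by 0.38 and *Fh1* (fumarase) rose by 0.34 against R2, with a median of -0.08. In fatty acid oxidation (14 genes), 2 (14.3%) were lower than in R2 and 5 (35.7%) were lower than in R1. *Hadh*, a dehydrogenase of the pathway, differed by -0.97 from R2 and -1.25 from R1.

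Glycolysis genes differed in both directions. Of 20 genes, 7 (35.0%) fell and 4 (20.0%) rose in R3 relative to R2, and the same counts were found against R1. *Hk3*, a hexokinase of myeloid cells, fell by 2.34 against R2, and *Ldhb*, a lactate dehydrogenase subunit, fell by 2.13. *Slc2a3*, a glucose transporter, rose by 1.42, and *Aldoa*, an aldolase, fell by 1.15. Without R3 replicate 1, the number of assembly factors lower than in R2 was 1 and that of fatty acid oxidation genes 0. Without R1 replicate 1, 11 mitochondrial ribosomal proteins were lower than in R2 and 16 lower than in R1.

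**Figure D5:**
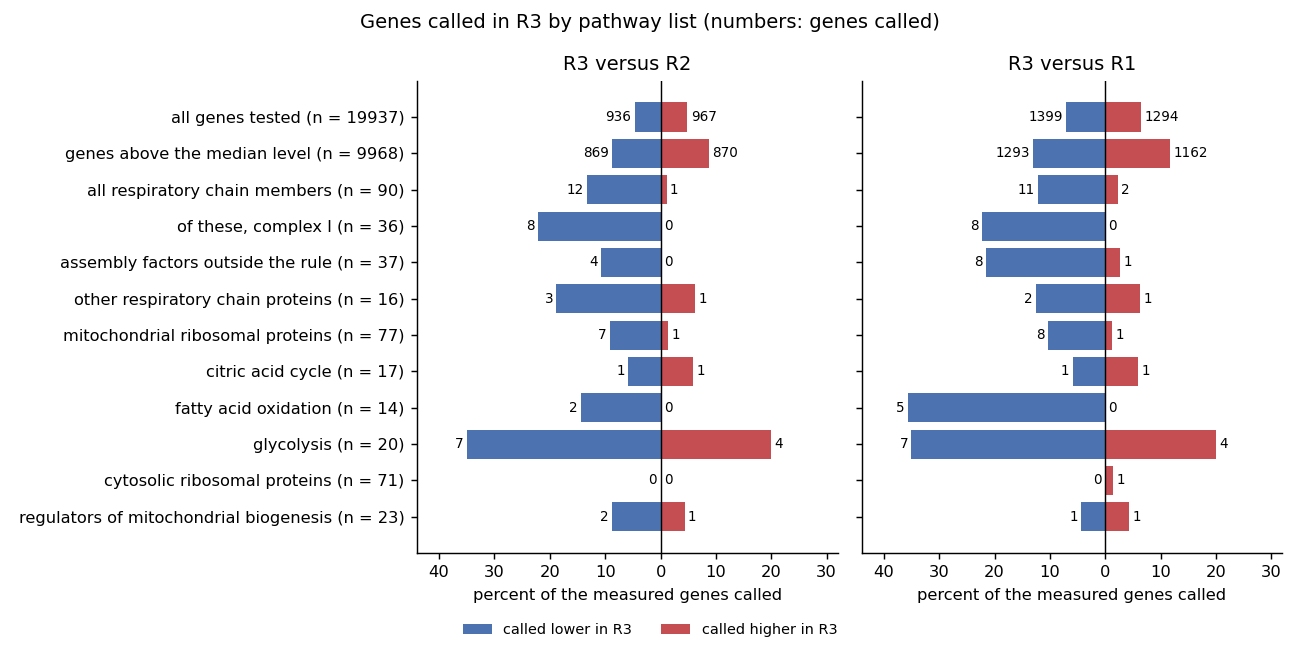
Percent of the measured genes of each list called lower (left of 0) or higher (right of 0) in R3, against R2 and against R1, with the number of genes called beside each bar. For all genes tested the shares against R2 are 4.69% and 4.85%. The 90 members reach 13.3% lower and 1.11% higher, and glycolysis has bars on both sides.

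The calls of single members depended on the arrays and settings in unequal degree. Under 21 alternative settings, *Ndufb2* was called lower than R2 in 20, *Ndufb9* in 19, *Ndufs4* and *Sdhd* in 18 each, and *Ndufs6* in 17. *Cox6a2* was called higher than R2 in 8 of 21 and higher than R1 in 17 of 21. *Ndufb7*, *Ndufb6*, *Ndufa1*, and *Sdhb* kept their call against R2 in 5 to 8 of 21. For 18 members with several probe sets, the others differed from the one used by a median of 0.08 (largest gap per gene, log2) in R3 minus R2, and 4 genes had a probe set of opposite sign there.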

How the data were processed

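Transcripts of R1, R2, and R3 cells were profiled on 9 Affymetrix arrays (3 per population). Cells were lysed in RLT buffer, and 1 ng of RNA was amplified with the NuGEN Ovation Pico kit and labeled with biotin. The authors deposited linear intensities for 34760 probe sets and analyzed them with GenePattern. Background correction, summarization, and normalization are not given in the sources used here. Array medians of the deposited intensity ran from 58.0 to 64.7. The number of arrays limits the precision.

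Intensities were turned to log2. Gene names came from the annotation of the platform, where 21640 probe sets name 1 gene, 1321 several, and 11799 none. Each gene was represented by the probe set of highest mean, and all 90 members matched RefSeq (GRCm38.p6) by Entrez ID. The 3 populations were fitted in 1 model with limma 3.58.1 (R 4.3.3) and 6 residual degrees of freedom, with Benjamini-Hochberg adjustment over 19937 genes per comparison and a threshold of 0.05. No filter on dim probe sets was used. Tables were made with Python 3.11.15. The fit was tested on simulated data.

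The members, complexes, and pathway and marker lists were chosen with earlier results of these data known. Named were up to 8 called members per direction and comparison that moved the same way on all 3 dates, core subunits, isoform genes, and up to 4 called genes per list. *Ndufa1*, *Ndufb7*, and *Atp5o*, the subunits *Uqcr10* and *Atp5md*, and the granule and plasmacytoid DC genes beside *Cox6a2* were named after their values were seen. Same-date arrays deviated together by correlations from -0.02 to 0.15. The date was no block in the main fit, because the study compared the populations without pairing. Alternatives were array centering, quantile normalization, a pseudocount of 16, genes above the median level, probe set means, a block for the date, array weights, the 6 arrays of each pair of populations, the methods' unpaired test, and leaving out arrays.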

Additional observations from a re-analysis of the deposited data

How the results depend on the processing

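Under 21 alternative settings, no called value of a named member changed sign. Among 2382 values of named members 146 lost the call and 1 gained it. Most of the 2382 belong to differences not called in the main fit, which had no call to lose. The called named members kept their call against R2 in 7 (*Ndufb6*) to 20 (*Ndufb2*) of the 21 settings. Against R1 they kept it in 8 (*Uqcr11*) to 18. A further 61 values that were called on neither side turned sign. The medians of the members moved by less than the spread of single-array medians (SD 0.063, log2) in all settings run, from -0.21 to -0.13 for R3 minus R2, from -0.17 to -0.07 for R3 minus R1, and from -0.02 to 0.08 for R2 minus R1. No member was called between R2 and R1 under any setting. The counts of called members moved more, and only for centering is the count over all genes set beside them. For R3 against R2 (12 lower, 1 higher), 6 were lower after median centering of the arrays and 4 with the methods' unpaired test. Over all genes, 801 were lower after centering and 936 in the main fit. With the pseudocount of 16, with only the 6 arrays of the pair, or with the unpaired test, 0 members were higher. For R3 against R1 (11 lower, 2 higher), 19 were lower with array weights, 6 with only the 6 arrays of the pair, and 2 with the unpaired test, and in the last 2 settings 0 were higher. With arrays left out, singly or as a whole replicate, the members lower than R2 ran from 2 to 15, higher than R2 from 0 to 1, lower than R1 from 1 to 15, and higher than R1 from 0 to 2. Fewer arrays were fitted there, and the shares of all genes called in those fits are not given. With the label date as a replicate block, 10 members were lower and 1 higher than R2, 12 lower and 2 higher than R1, and 0 were called between R2 and R1. Of the 9 same-date pairs of arrays, correlations of their deviations had a median of 0.10, and those of the 18 other pairs -0.04, which does not establish a pairing by date. Array centering moved the median of all genes for R3 minus R2 from -0.01 to 0.03. At an unadjusted p under 0.05, the unpaired test gave 33 members lower and 1 higher than R2 and 20 lower and 2 higher than R1. Counts by complex and pathway list were also run without R1 replicate 1 and without R3 replicate 1, chosen after seeing the data. Without R3 replicate 1, complex I had 4 members lower than R2 and 5 lower than R1. Arrays give no count of molecules, and 4 members (*Cox7b2*, *Cox8b*, *Cox8c*, and *Ndufa4l2*) lay at or below the median level of all genes.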
